A study of Sus scrofa with 20 samples.

Results

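LPL, ACSL1, CPT1B, CPT2 and ECI1 encode 5 enzymes that bring fatty acids into heart muscle and start their oxidation. Their signals were followed in pig heart on an Affymetrix porcine array by taking every probe set whose gene symbol is one of these names, which gave 6 of 23999 probe sets and 5 of 6765 named genes. LPL has 2 probe sets and each of the other 4 genes has 1. The study placed 20 female pigs in 4 groups of 5, with 1 array per animal. SWOP pigs had the coronary artery occluded 2 times for 10 min, with sampling after 24 h of reperfusion. RCO pigs received 10 min occlusions in 6 sessions 12 h apart. The series design gives each RCO session 2 occlusions with 10 min of reperfusion after each, while the sample labels mention 6 episodes only. RCS pigs had 6 episodes of 90 min of low-flow ischemia, produced by a coronary stenosis, at the same 12 h spacing. Control pigs were sham-operated. The sources used here do not give the part of the heart sampled, the age and breed of the animals, or the time from the last RCO or RCS episode to sampling. The series title asks whether preconditioning by repeated ischemia works through other mechanisms than the classical second window.

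The adult heart draws most of its energy from long-chain fatty acids. Lipoprotein lipase frees them from circulating triglyceride, cells take them up and couple them to coenzyme A, and the carnitine shuttle carries them into mitochondria, where the beta oxidation cycle shortens them step by step. Cells need LPL for the supply, ACSL1 for the coupling, CPT1B and CPT2 for the passage through the 2 mitochondrial membranes, and ECI1 for fatty acids whose double bonds lie where the cycle cannot use them.

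The values are log2 signals as deposited, so a difference of 1 is a doubling. The number of arrays limits the precision, with a median standard error of 0.111 for a difference between 2 groups. Array medians lay between 6.75 and 6.82. The interquartile range of the signals was less alike, at 3.26 to 3.30 in SWOP, 3.05 to 3.32 in RCO, 3.27 to 3.44 in RCS and 3.04 to 3.16 in control. RCO replicates 2 and 3 stood apart from the other RCO arrays on the first principal component over all probe sets, at 43.96 and 29.37 against −18.34 to −3.57, within the RCS range of 26.38 to 64.30. The 10 measured of 12 listed cardiomyocyte markers averaged 13.50 to 14.23 on every array, so the labelled tissue had its defining transcripts. The signal of the actin control spots at the 3′ end minus that at the 5′ end, a measure of RNA integrity, was 1.21 to 1.35 in SWOP, 0.682 to 1.31 in RCO, 0.513 to 0.695 in RCS and 1.11 to 1.63 in control.

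All 5 enzymes were lower in RCS hearts than in control hearts, by 1.58-fold for CPT2 to 3.26-fold for CPT1B. In RCO hearts 3 of them were lower than in control, LPL, ACSL1 and CPT1B, by 1.92-fold to 2.18-fold, and CPT2 and ECI1 did not pass the test. In SWOP hearts 0 of the 5 passed. A gene passed where its Benjamini-Hochberg adjusted p from limma, over all 23999 probe sets, was below 0.05. Among all genes 25.7% passed as lower in RCS, 4.26% in RCO and 3.5% in SWOP. The median difference of the 5 enzymes was −0.11 in SWOP, −0.94 in RCO and −1.10 in RCS, while that of all 6765 genes was 0.04, 0.01 and −0.004. At an unadjusted p below 0.05 the SWOP count was 1, CPT2, and the fit with array weights also called 1, CPT2 at −0.26 (limma adjusted p = 0.0474). The 3 comparisons share the same 5 control arrays. In bulk tissue, fewer cardiomyocytes and less of a transcript per cell cannot be told apart.

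**Figure D1:**
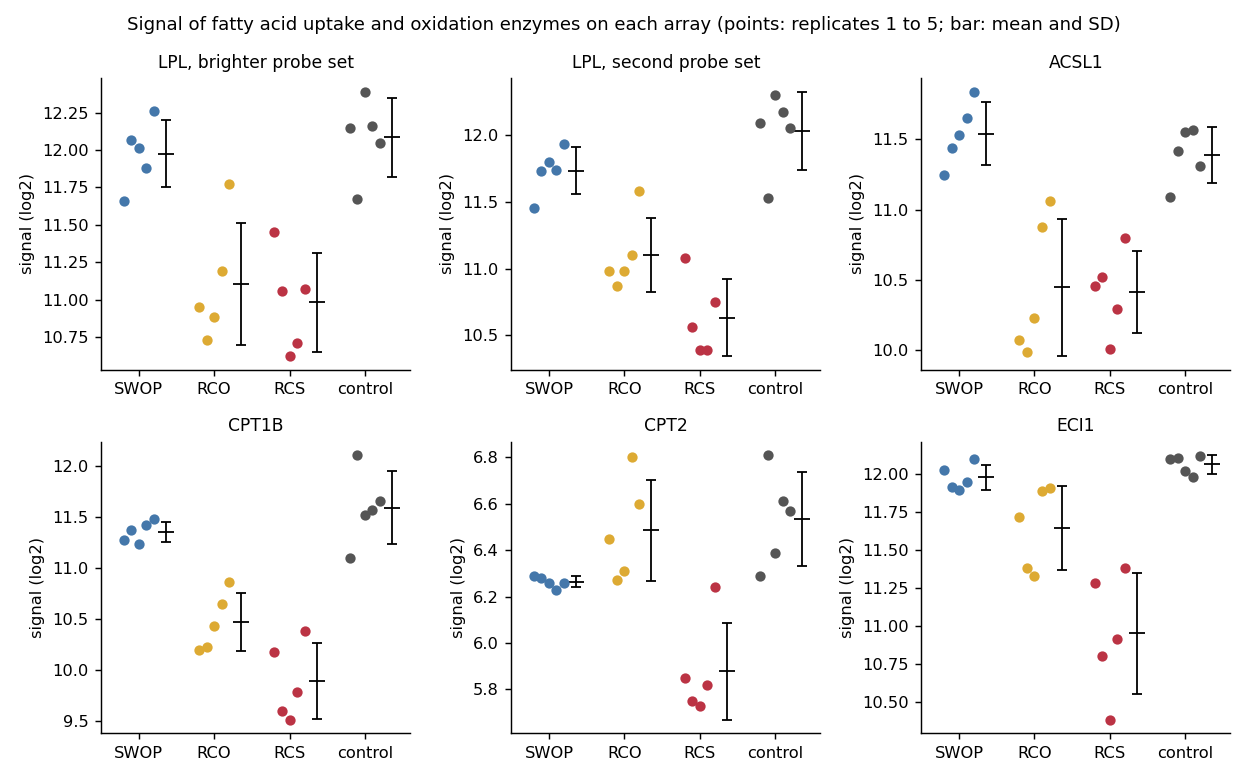
The log2 signal (vertical axis) of each of the 6 probe sets is plotted for the SWOP, RCO, RCS and control groups, with 1 point per array in order of replicate number and a bar for the mean ± SD of 5 arrays. RCS arrays lie below every control array in all 6 panels, and SWOP arrays overlap with control arrays in all 6.

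LPL, lipoprotein lipase, is made by the muscle cell and works at the capillary wall, where it splits triglyceride into fatty acids. Its brighter probe set read 11.66, 12.07, 12.01, 11.88 and 12.26 in SWOP replicates 1 to 5. It read 10.95, 10.73, 10.88, 11.19 and 11.77 in RCO, and 11.45, 11.06, 10.62, 10.71 and 11.07 in RCS. The control arrays read 12.15, 11.67, 12.39, 12.16 and 12.05. Every RCS array was below every control array, and in RCO 4 of 5 were, since RCO replicate 5 exceeded the lowest control. LPL was 2.15-fold lower in RCS (−1.10 ± 0.18, SE, limma adjusted p = 0.000113) and 1.97-fold lower in RCO (−0.98 ± 0.18, limma adjusted p = 0.00301). In SWOP the difference was −0.11, with a 95% interval of −0.49 to 0.28. The second probe set, at 10.39 to 11.08 in RCS, 10.87 to 11.58 in RCO and 11.45 to 11.93 in SWOP against 11.53 to 12.30 in control, gave −1.39 in RCS, −0.93 in RCO and −0.30 in SWOP (limma adjusted p = 2.76e-06, 0.00192 and 0.231). The 2 probe sets had the same direction and the same calls in each comparison with control.

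ACSL1, the long-chain acyl-CoA synthetase that predominates in heart, couples fatty acids to coenzyme A. It read 11.25, 11.44, 11.53, 11.65 and 11.84 in SWOP and 10.07, 9.99, 10.23, 10.88 and 11.06 in RCO. The RCS arrays read 10.46, 10.52, 10.01, 10.29 and 10.80, against 11.09, 11.42, 11.55, 11.57 and 11.31 in control. All RCO and all RCS arrays lay below the lowest control array, although RCO replicate 5 did so by only a small margin. The RCO arrays spread over the widest range of the 4 groups, with replicates 4 and 5 above the others. ACSL1 was 1.96-fold lower in RCS (−0.97 ± 0.19, SE, limma adjusted p = 0.000417) and 1.92-fold lower in RCO (−0.94 ± 0.19, limma adjusted p = 0.00405). In SWOP it stood 0.15 above control, with a 95% interval of −0.24 to 0.55. Among all genes 16.9% had every RCS array below every control array, and 2.71% had every RCO array there.

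CPT1B is the muscle form of carnitine palmitoyltransferase 1. It sits on the outer mitochondrial membrane, makes acylcarnitines and is the step that malonyl-CoA inhibits. It read 11.28, 11.37, 11.24, 11.42 and 11.48 in SWOP and 10.19, 10.22, 10.43, 10.65 and 10.86 in RCO. The RCS arrays read 10.17, 9.6, 9.51, 9.78 and 10.38, and the control arrays 11.10, 12.11, 11.52, 11.57 and 11.66. No RCO or RCS array reached the lowest control array, and the SWOP arrays all lay inside the control range. CPT1B was 3.26-fold lower in RCS (−1.70 ± 0.18, SE, limma adjusted p = 1.52e-06) and 2.18-fold lower in RCO (−1.12 ± 0.18, limma adjusted p = 0.00124), the largest difference of the 5 enzymes in each. Of 6765 genes, 14 had a lower difference in RCS and 12 in RCO. In SWOP the difference was −0.23, with a 95% interval of −0.60 to 0.13.

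CPT2 works on the inner mitochondrial membrane and turns acylcarnitines back into acyl-CoA. Its signal was 6.29, 6.28, 6.26, 6.23 and 6.26 in SWOP and 6.45, 6.27, 6.31, 6.80 and 6.60 in RCO. The RCS arrays read 5.85, 5.75, 5.73, 5.82 and 6.24, against 6.29, 6.81, 6.39, 6.61 and 6.57 in control. These were the weakest signals of the 5 enzymes, not far above 5.48, the limit below which signals were called dim. That limits how the differences of CPT2 compare with those of the brighter enzymes. The SWOP arrays lay within a very narrow band at or just below the lower edge of the control range, the RCO arrays were spread across that range, and the RCS arrays were below it, with replicate 5 well above the other 4. CPT2 was 1.58-fold lower in RCS (−0.66 ± 0.11, SE, limma adjusted p = 0.000154). In RCO it differed by −0.05, with a 95% interval of −0.28 to 0.19 (limma adjusted p = 0.825). In SWOP it differed by −0.27, with a 95% interval of −0.51 to −0.03 (limma adjusted p = 0.136), and 4 of 5 arrays were below every control.

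ECI1, enoyl-CoA delta isomerase 1, moves double bonds of unsaturated fatty acids so that beta oxidation can go on. It read 12.03, 11.92, 11.90, 11.95 and 12.10 in SWOP and 11.72, 11.38, 11.33, 11.89 and 11.91 in RCO. The RCS arrays read 11.28, 10.80, 10.38, 10.91 and 11.38, while the control arrays kept to 12.10, 12.11, 12.02, 11.98 and 12.12. ECI1 was 2.17-fold lower in RCS (−1.12 ± 0.15, SE, limma adjusted p = 1.31e-05). In RCO all 5 arrays also lay below all 5 controls, replicates 4 and 5 by less than the others, but the difference of −0.42 ± 0.15 did not pass (limma adjusted p = 0.0726). It passed in 4 of 31 alternatives, among them after quantile normalization, at −0.51 (limma adjusted p = 0.0289), and without RCO replicate 5, at −0.49 (limma adjusted p = 0.0366), or without RCS replicate 3, at −0.42 (limma adjusted p = 0.0334). In SWOP the difference was −0.09, with a 95% interval of −0.40 to 0.22.

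The protocols were then compared with each other. RCS hearts were lower than SWOP hearts in 5 of 5 enzymes, where 17.7% of all genes were lower, and RCO hearts in 3 of 5, where 6.4% were. ACSL1 was 2.14-fold lower in RCO than in SWOP (−1.10, limma adjusted p = 0.00283) and CPT1B 1.85-fold lower (−0.89, limma adjusted p = 0.00605), with all RCO arrays below all SWOP arrays for both, as in 4.01% of all genes. LPL stood at −0.87 (limma adjusted p = 0.00842), with 4 of 5 RCO arrays below all SWOP arrays. Its second probe set stood at −0.63 (limma adjusted p = 0.0183), a call lost without SWOP replicate 5 (0.0555) and without RCO replicates 2 and 3 (0.0855). CPT2 and ECI1 stood at 0.22 and −0.33 in RCO minus SWOP, with 95% intervals of −0.01 to 0.46 and −0.64 to −0.02 (limma adjusted p = 0.212 and 0.152). In RCS minus SWOP the differences were −1.47 for CPT1B, −1.13 for ACSL1, −1.03 for ECI1, −0.99 for LPL and −0.39 for CPT2 (limma adjusted p from 1.43e-05 to 0.0141). The CPT2 call was lost with cardiomyocyte centring, which gave 0.0396 (limma adjusted p = 0.734).

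In RCS against RCO hearts CPT1B, CPT2 and ECI1 were lower, 3 of 5 enzymes where 9.9% of all genes were. CPT2 was 1.52-fold lower in RCS, which had every array below every RCO array, as in 3.44% of all genes, and ECI1 was 1.62-fold lower, with 4 of 5 RCS arrays below all RCO arrays (−0.61 and −0.70, limma adjusted p = 0.00268 and 0.00524). CPT1B was 1.497-fold lower, also with 4 of 5 arrays below (−0.58, limma adjusted p = 0.0283). That call was lost without RCO replicates 4 (limma adjusted p = 0.0651) or 5 (0.0850), or RCS replicates 2 (0.0702), 3 (0.0907) or 4 (0.0598). The brighter probe set of LPL and ACSL1 did not pass, at −0.12 and −0.03. Their 95% intervals, −0.51 to 0.26 and −0.42 to 0.36, leave room for differences of up to about that size. The second LPL probe set was lower in RCS at −0.47 (limma adjusted p = 0.0427), a call lost without RCO replicate 5 (−0.35, limma adjusted p = 0.130) and without any 1 of SWOP replicates 2, 3 and 4, RCO replicates 1 and 4, RCS replicates 2, 3 and 4 and control replicate 5. Whether the enzymes differ from one another in this contrast was not tested.

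**Figure D2:**
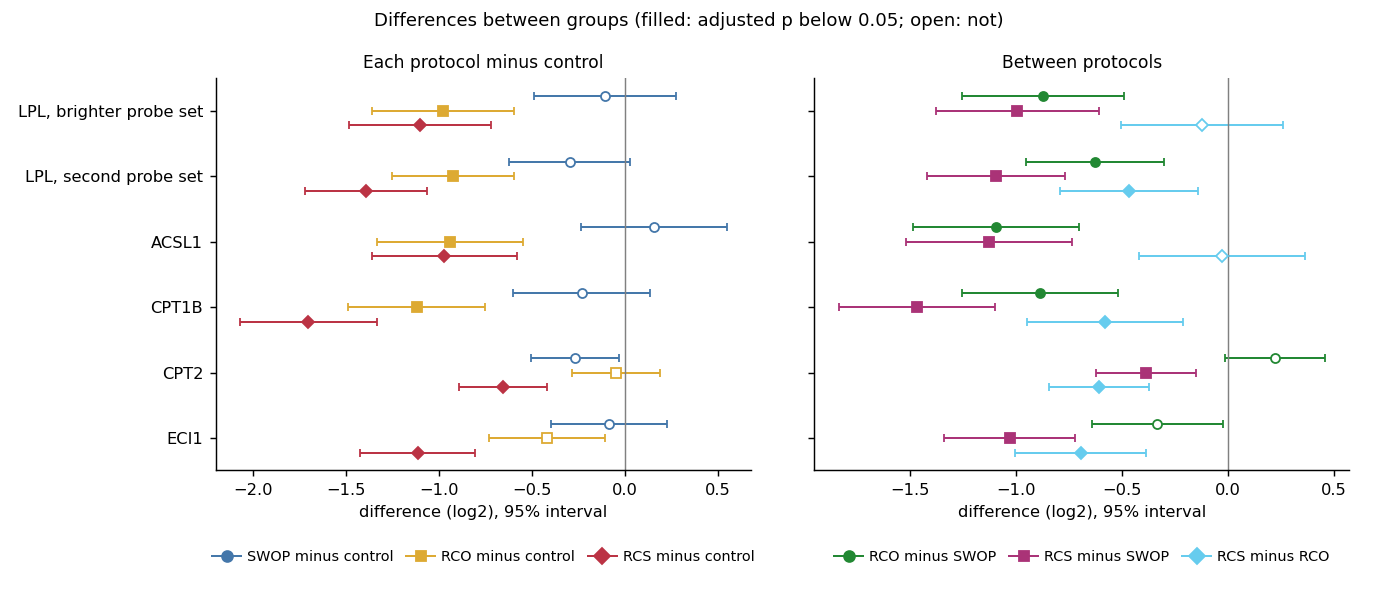
Differences in log2 signal between groups (horizontal axis) are shown for the 6 probe sets with 95% intervals, each protocol minus control on the left and protocol minus protocol on the right, filled where the adjusted p is below 0.05. In RCS minus control every marker is filled and lies between −1.70 and −0.66, while in SWOP minus control every marker is open.

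Within a group the same animals often held the lowest and the highest signals. RCS replicate 3 had the lowest signal of its group on 6 of 6 probe sets, in 1 case tied with RCS replicate 4, and RCS replicate 5 the highest on 4. RCO replicate 2 was lowest on 4 of 6 and RCO replicate 5 highest on 5. SWOP replicate 5 was also highest on 5, and control replicate 5 on 1. The mean of the 5 enzymes was 10.502 to 10.79 in SWOP. In RCO it was 9.88, 9.72, 9.84, 10.28 and 10.44 for replicates 1 to 5, and in RCS 9.84, 9.55, 9.25, 9.502 and 9.97. In control it was 10.55 to 10.82. RCO replicates 1, 2 and 3 therefore lay among the RCS arrays, and RCO replicates 4 and 5 lay between those and the lowest SWOP and control arrays. With RCO replicates 2 and 3 left out, LPL, ACSL1 and CPT1B stood at −0.78, −0.72 and −1.03 in RCO minus control (limma adjusted p = 0.0324, 0.0444 and 0.0105), and ECI1 at −0.23 (limma adjusted p = 0.450).

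Markers of the muscle cell itself moved with the enzymes. The mean of the 10 cardiomyocyte markers was 14.11 to 14.23 in SWOP, 13.89 to 14.10 in RCO, 13.50 to 13.96 in RCS and 14.15 to 14.23 in control. Of the 10, 8 passed as lower in RCS, 1 in RCO and 0 in SWOP, against 25.7%, 4.26% and 3.5% of all genes. A list of 10 measured transcripts of mitochondrial content averaged 12.80 to 13.03 in SWOP, 12.36 to 12.87 in RCO, 12.18 to 12.67 in RCS and 12.76 to 12.93 in control, with 7 lower in RCS and 0 in RCO. When each array was centred on its cardiomyocyte markers, whose mean differed from control by −0.196 in RCO and −0.427 in RCS, CPT1B stood at −1.28, ECI1 at −0.69, LPL at −0.68 and ACSL1 at −0.55 in RCS minus control, and all 4 passed (limma adjusted p from 1.27e-06 to 0.00498). CPT1B, LPL and ACSL1 also passed in RCO minus control, at −0.93, −0.78 and −0.75. CPT2 no longer passed in RCS, at −0.23 (limma adjusted p = 0.0606), and the CPT1B difference between RCS and RCO, at −0.35, did not pass either (limma adjusted p = 0.0791). Centring on the mitochondrial list gave the same calls for these differences, with CPT2 at −0.23 and CPT1B at −1.28 in RCS minus control. The cardiomyocyte mean covers a wide range in RCS minus control. It runs from −0.04 for MYH7, at 14.87 in control, to −1.22 for RYR2, at 12.23 in control. RYR2 thus fell by more than LPL, ECI1 and ACSL1 did before centring, and centring on single markers was not tested.

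Markers of other cell types also differed between groups. Among all genes 4.66% passed as higher and 3.5% as lower in SWOP, 11.3% and 4.26% in RCO, and 28.8% and 25.7% in RCS. Macrophage markers, 8 measured of 12, averaged 7.87 to 8.54 in SWOP, 8.49 to 9.85 in RCO, 8.90 to 9.18 in RCS and 7.87 to 8.60 in control, with 3 higher in RCO and 4 higher and 1 lower in RCS. Fibroblast markers, 6 measured of 8, averaged 10.08 to 10.48 in SWOP, 9.85 to 11.73 in RCO, 11.21 to 11.99 in RCS and 9.34 to 10.52 in control, with 2 higher in RCO and 4 in RCS. Smooth muscle markers, 4 measured of 5, averaged 9.24 to 9.99 in SWOP, 9.42 to 10.32 in RCO, 10.04 to 10.63 in RCS and 8.90 to 9.62 in control, with 1 higher in SWOP, 1 in RCO, and 3 higher and 1 lower in RCS. CNN1, calponin, passed as higher in all 3 protocols, at 1.49 in SWOP, 1.92 in RCO and 2.22 in RCS (limma adjusted p = 0.00646, 0.000204 and 2.02e-06). Of 7 endothelial markers VWF was lower in RCO, at −0.95 (limma adjusted p = 0.0409), and no other passed against control. Adipocytes also make LPL. Their markers, 5 measured of 7, averaged 7.69 to 8.28 in SWOP, 7.77 to 8.01 in RCO, 7.41 to 7.69 in RCS and 7.95 to 9.38 in control, with 1, 2 and 3 lower. The adipocyte hormone ADIPOQ was among the dim 30% of probe sets, at 4.82 to 5.73 in the 3 protocols and 5.27 to 9.67 in control, where replicate 4 held the top value. Without control replicate 4, LPL stood at −0.96 in RCO minus control and −1.08 in RCS minus control (limma adjusted p = 0.00829 and 0.000410). The part of macrophages, fibroblasts, smooth muscle, endothelium and RNA integrity in the enzymes' differences was not tested.

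**Figure D3:**
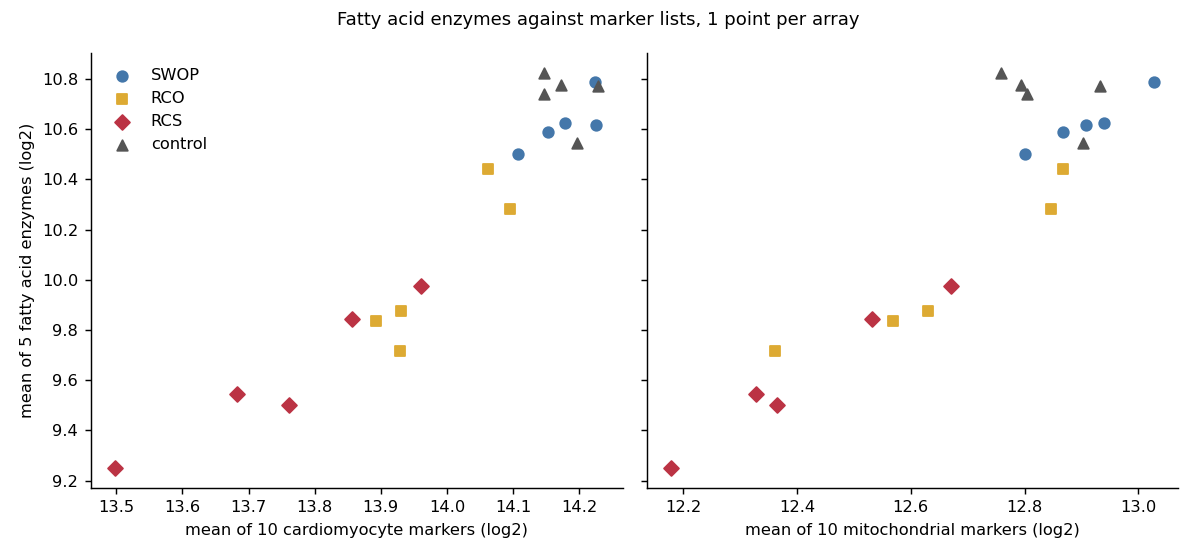
Each point is 1 array, with the mean log2 signal of the 5 enzymes on the vertical axis and the mean log2 signal of 10 cardiomyocyte markers (left) or 10 mitochondrial transcripts (right) on the horizontal axis. The control and SWOP arrays lie at 10.502 to 10.82 on the vertical axis, the RCS arrays at 9.25 to 9.97, and the RCO arrays between 9.72 and 10.44.

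Fatty acid activation and entry into mitochondria each have further isoforms. ACSL4, a synthetase that prefers arachidonate, read 9.26 to 9.57 on SWOP arrays, while RCO arrays held 9.09 to 10.05 and RCS arrays 9.95 to 10.62, against 8.73 to 9.48 in control. It was higher in RCS by 1.13 ± 0.17 (SE, limma adjusted p = 3.93e-05), with all 5 RCS arrays above all controls, as in 23.3% of all genes. ACSL5 read 7.74 to 8.35 on SWOP arrays, while RCO arrays held 8.09 to 9.22 and RCS arrays 8.38 to 8.99, against 7.13 to 7.97 in control. All RCO and all RCS arrays exceeded the controls, as in 5.81% and 23.3% of all genes. ACSL5 was higher by 0.98 in RCO and 1.22 in RCS (limma adjusted p = 0.00317 and 4.58e-05), and it passed as higher on each of its 3 probe sets. ACSL3 and CPT1A lie outside the rule for naming genes and were added as isoforms with their values known. ACSL3 was higher in RCS by 0.61 (limma adjusted p = 0.00186). CPT1A, the liver form of CPT1, read 7.79 to 8.75 in RCO and 8.29 to 8.72 in RCS against 7.94 to 8.79 in control, and its differences of −0.06 and 0.15 did not pass (limma adjusted p = 0.867 and 0.468). The RCS difference of CPT1A has a standard error of 0.17, so a change of modest size could have been missed.

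CPT1C, the form known from neurons, stood at −0.57 in SWOP and −0.51 in RCS on its brightest probe set (limma adjusted p = 0.00881 and 0.000621). It read 5.42 to 5.86 on SWOP arrays, while RCO arrays held 5.89 to 6.26 and RCS arrays 5.60 to 5.97, against 6.01 to 6.48 in control. Every SWOP and every RCS array of CPT1C was below the controls, as in 5.42% and 16.9% of all genes. Its other 2 probe sets gave −0.12 and −0.18 in SWOP and −0.11 and −0.23 in RCS, and only the last of these passed (limma adjusted p = 0.0453). Centring on the cardiomyocyte markers brought CPT1C to −0.08 in RCS (limma adjusted p = 0.519). ACSL6 was dim in all groups.

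**Figure D4:**
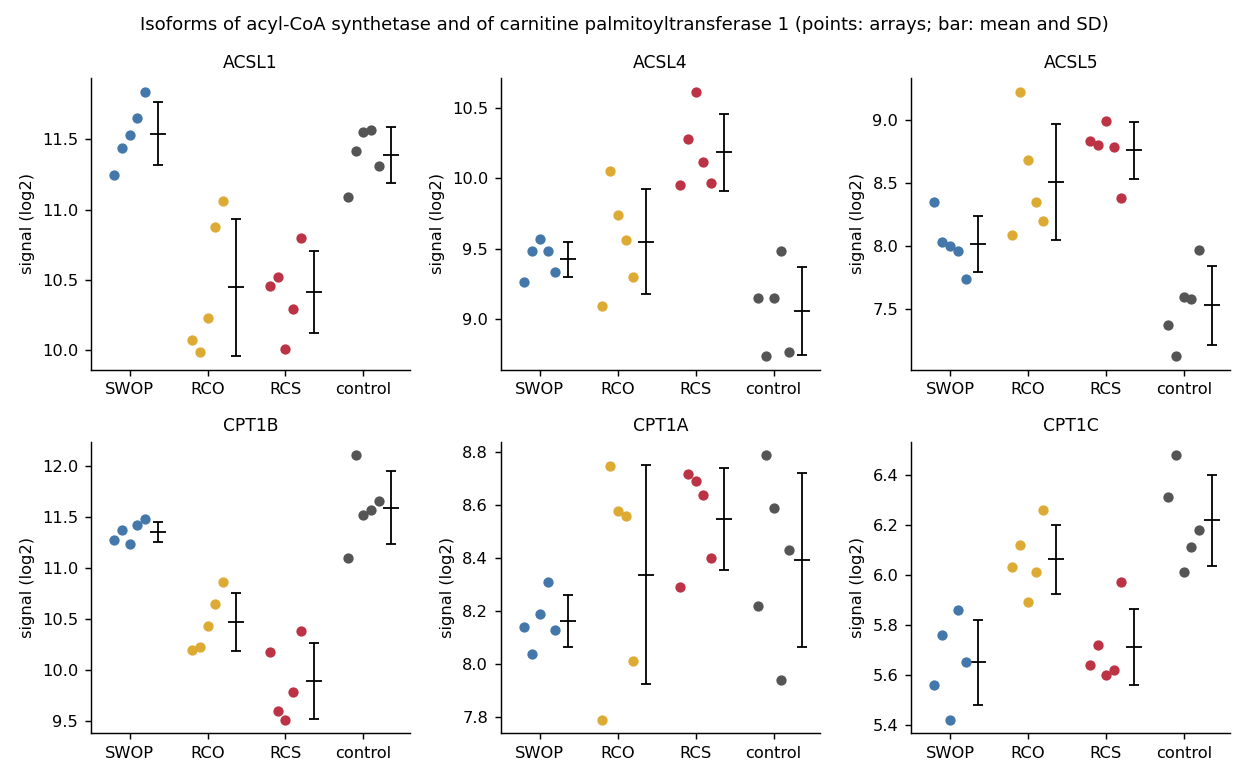
Log2 signals (vertical axis) of ACSL1, ACSL4 and ACSL5 (top) and CPT1B, CPT1A and CPT1C (bottom) are plotted by group, with 1 point per array and a bar for the mean ± SD of 5 arrays. ACSL1 and CPT1B lie below control in RCO and RCS, ACSL5 lies above it in both, and CPT1A overlaps with control.

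A list of further genes of the pathway, sorted into 7 roles, had 71 measured. In RCS 38 of the 71 were lower, 11 higher and 22 did not pass, against 25.7% lower and 28.8% higher among all genes. In RCO 15 were lower, 4 higher and 52 did not pass, against 4.26% lower and 11.3% higher. SWOP had 2 lower, CPT1C and the transporter SLC27A6, near the share of 3.5% among all genes, and 69 did not pass. The same shares of all genes apply to the counts by role below. Of the named genes, ACADL, ACSL5 and ACOX3 kept their RCO calls in every alternative that was run. With RCO replicates 2 and 3 left out the RCO count fell to 3 lower and 3 higher, and the total called was 9 without RCO replicate 3. The RCO call of ACOT7 was lost without RCO replicate 3 (limma adjusted p = 0.0599). Single arrays also decided RCO calls of HADHB (lost without control replicate 2, limma adjusted p = 0.0529), PCCA (without RCO replicate 3, 0.0625), ACADSB (without RCO replicates 2 or 3 or control replicates 1 or 3, up to 0.0730), LIPE (without RCO replicate 3 or control replicates 2 or 4, up to 0.0659) and DGAT2 (without RCO replicate 3, 0.0523), and the RCS call of DBI (without RCS replicates 1 or 5 or control replicate 2, up to 0.0876).

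In the list of mitochondrial beta oxidation 16 of 18 measured genes in RCS were lower and 0 higher, with a median of −0.71, and in RCO 7 were lower and 0 higher, with a median of −0.39. The list also holds genes beside the fatty acid cycle, such as ACADSB and PCCA. All 18 had differences below 0 in both. ACADL, the long-chain acyl-CoA dehydrogenase that opens the cycle, read 11.37 to 11.62 on SWOP arrays, while RCO arrays held 10.75 to 11.24 and RCS arrays 10.44 to 11.01, against 11.37 to 11.94 in control. No RCO or RCS array reached a control array, and ACADL stood at −0.64 in RCO and −0.94 in RCS (limma adjusted p = 0.00383 and 1.35e-05). HADHB, the thiolase subunit of the trifunctional protein, stood at −0.50 in RCO and −0.81 in RCS, and HADH, the hydroxyacyl-CoA dehydrogenase, at −0.53 and −0.83. ACADSB, which acts on short branched chains, fell by 1.32 in RCS and by 0.52 in RCO. PCCA, a subunit of the carboxylase that uses the propionyl-CoA left by odd chains, fell by 1.30 in RCS and by 0.63 in RCO. The 5 genes passed in both protocols, and their RCS calls held in every alternative run. In RCO the count of 7 was 4 without RCO replicate 2, 3 without RCO replicate 3, 1 without both and 11 without RCO replicate 5. Cardiomyocyte centring ended the RCO call of HADHB, at −0.31 (limma adjusted p = 0.0780).

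In the carnitine shuttle 5 of 6 measured genes were lower in RCS and 1 in RCO, with medians of −0.48 and −0.11. SLC25A20, which exchanges acylcarnitine for carnitine across the inner membrane, read 9.31 to 9.79 on SWOP arrays, while RCO arrays held 8.89 to 9.49 and RCS arrays 8.43 to 9.03, against 9.38 to 10.30 in control. In RCS it stood at −1.004 ± 0.16 (SE, limma adjusted p = 7.81e-05), with no overlap. In RCO it stood at −0.51 (limma adjusted p = 0.0489), a call lost in 21 of 31 alternatives. TMLHE, the first enzyme of carnitine synthesis, stood at −0.29 in RCS and turned to 0.14 when arrays were centred on cardiomyocyte markers (limma adjusted p = 0.217).

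Uptake genes were mixed. In RCS 4 of 8 measured were lower and 1 higher, and in RCO 1, SLC27A6, was lower. FABP3, the fatty acid binding protein of heart muscle, read 12.87 to 13.45 in RCS against 13.64 to 14.04 in control, a difference of −0.64 (limma adjusted p = 0.000183). The transport protein SLC27A1 stood at −0.60 (limma adjusted p = 0.00274). After centring on cardiomyocyte markers neither passed, at −0.21 and −0.18. FABP5, the epidermal binding protein, was higher by 0.44 in RCS on its brightest probe set (limma adjusted p = 0.000145). All RCS arrays were above all controls there, as in 23.3% of all genes. The second probe set of FABP5 passed as higher in SWOP, RCO and RCS, at 0.45, 0.58 and 0.91 (limma adjusted p = 0.0278, 0.00408 and 9.015e-06). SLC27A6 was lower on its brightest probe set in SWOP, RCO and RCS, at −0.33, −0.29 and −0.28, but 1 of its other probe sets stood at 0.28 in RCS, and its calls were lost in 23 of 31 alternatives in RCO and 10 of 31 in SWOP, there also without any 1 of SWOP replicates 2, 3 and 4 and control replicates 1, 4 and 5 (limma adjusted p up to 0.102). In RCS it turned to 0.14 with cardiomyocyte centring (limma adjusted p = 0.269). GPIHBP1, which anchors LPL to the capillary wall, lies outside the naming rule and was added with its value known. It stood at −0.64 in RCS (limma adjusted p = 0.00708).

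Of activation and thioesterase genes 5 were higher and 1 lower of 8 measured in RCS, and 3 were higher in RCO (5 without RCO replicate 5). ACOT7, a thioesterase that splits acyl-CoA, read 5.50 to 5.66 on SWOP arrays, while RCO arrays held 5.47 to 7.30 and RCS arrays 6.90 to 7.78, against 5.03 to 5.33 in control. It was higher by 1.99 in RCS and by 1.1 in RCO (limma adjusted p = 2.49e-05 and 0.0179). The RCO value rested on replicates 2 and 3, at 7.30 and 7.25. Without replicate 3 alone it was 0.87 (limma adjusted p = 0.0599), and without both it was 0.46 (limma adjusted p = 0.117). DBI, the acyl-CoA binding protein, was higher by 0.50 in RCO and by 0.30 in RCS (limma adjusted p = 0.00678 and 0.0263).

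Among genes of stored fat, 5 of 8 measured were lower and 1 higher in RCS, and 4 were lower in RCO. The RCO count was 1 lower without RCO replicate 3, 2 lower without control replicate 2, and 0 lower with 1 higher without RCO replicates 2 and 3. MGLL, monoacylglycerol lipase, stood at −0.86 in RCS and −0.53 in RCO (limma adjusted p = 4.08e-05 and 0.0132). Its second probe set passed in RCS, at −0.84, but not in RCO, at −0.42 (limma adjusted p = 9.61e-05 and 0.0561). The RCO call of the brightest probe set was lost with only 2 groups fitted (limma adjusted p = 0.0541) and without RCO replicates 2 and 3 (0.1065). LIPE, hormone-sensitive lipase, stood at −1.31 in RCS and −0.99 in RCO, and DGAT2, an enzyme of triglyceride synthesis, at −1.22 and −1.03. LIPE is also on the adipocyte list, and DGAT2 read 9.11 in control replicate 4 and 6.99 to 7.65 in the other controls. PLIN2, a coat protein of lipid droplets, was higher in RCS by 1.29 (limma adjusted p = 0.000533), at 7.96 to 8.80 against 6.47 to 8.19 in control, where replicate 4 again held the top value.

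Regulators and peroxisomal genes moved in both directions or little. Of 17 measured regulators 4 were higher and 6 lower in RCS, and 1 was higher and 1 lower in RCO. These counts are not far from the shares among all genes, 28.8% higher and 25.7% lower in RCS and 11.3% and 4.26% in RCO. HIF1A, the oxygen-sensitive transcription factor, was higher by 0.68 in RCS and by 0.40 in RCO on its brightest probe set (limma adjusted p = 2.94e-05 and 0.0136), although 2 of its other 3 probe sets, both dim, did not pass and the third passed in RCS, at 0.58, but not in RCO, at 0.40 (limma adjusted p = 0.0241 and 0.209). UCP2, an uncoupling protein, was higher by 0.71 in RCS, and PRKAA2, a catalytic subunit of AMP-activated kinase, stood at −0.71. TXNIP, an inhibitor of thioredoxin, stood at −0.61 in RCO and −0.54 in RCS, and both calls were lost with cardiomyocyte centring, at −0.42 and −0.12 (limma adjusted p = 0.0913 and 0.560). Without RCO replicate 5 the regulators lower in RCO numbered 3. The peroxisomal oxidases ACOX2, at −0.71 in RCS, and ACOX3, at −0.82 in RCO (limma adjusted p = 0.00116 and 0.00216), passed on their brightest probe sets, 1 of 6 measured peroxisomal genes in each protocol. The second probe set of ACOX3 stood at −0.53 in RCS and −0.19 in RCO (limma adjusted p = 0.000833 and 0.284), and that of ACOX2 at −0.67 and −0.48 (limma adjusted p = 0.00104 and 0.0369). The peroxisomal count in RCS was 4 with quantile normalization and 3 without RCO replicate 1, RCO replicate 3 or RCS replicate 5.

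**Figure D5:**
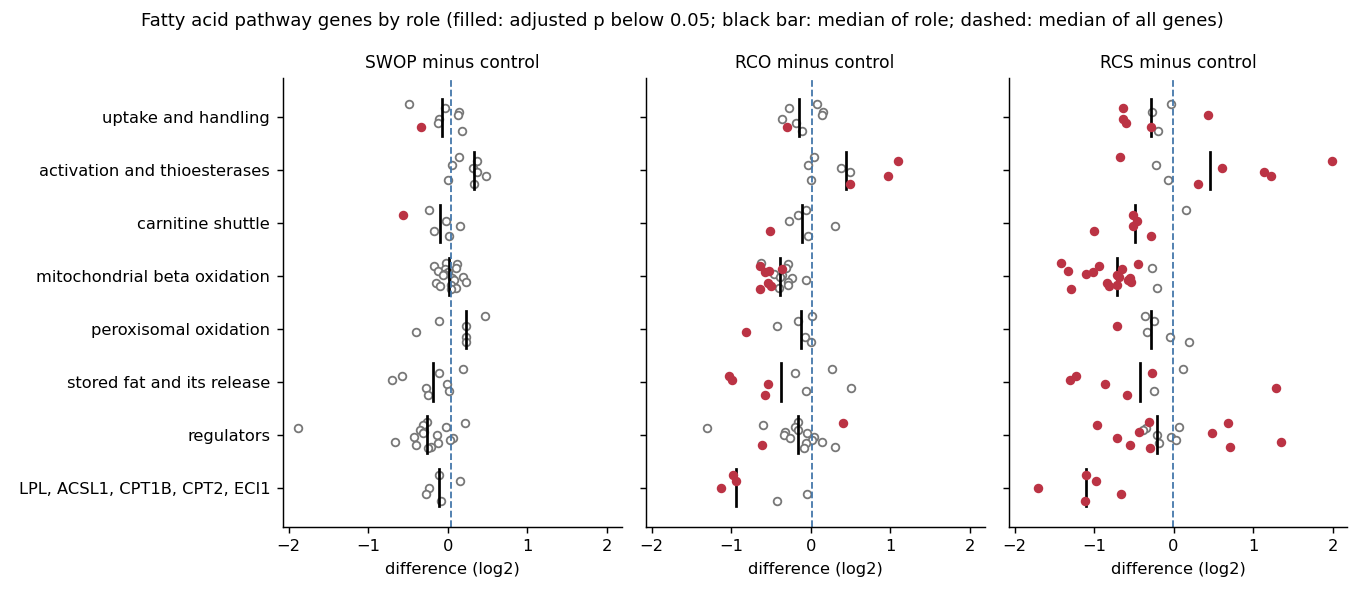
Differences in log2 signal from control (horizontal axis) are plotted for each measured pathway gene by role in SWOP, RCO and RCS, filled where the adjusted p is below 0.05, with a black bar for the role's median and a dashed line for the median of all genes. The 18 genes listed under mitochondrial beta oxidation all lie below 0 in RCO and in RCS, and the 5 enzymes have medians of −0.94 and −1.10 there.

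The genes whose signals were most like those of each enzyme over the 20 arrays were taken from 5769 genes above the dim limit. Genes known only by a locus or clone name were left out of that search. These correlations share arrays and group differences, so r after removal of the group means stands in parentheses. LPL was closest to CAST, the calpain inhibitor calpastatin, at r = 0.97 (0.91 with group means removed), then DLD at 0.93 (0.82) and BCAT2 at 0.92 (0.71), with ACSL1 next. ACSL1 was closest to TTN, the giant sarcomere protein titin, at r = 0.95 (0.87), then TACC2 at 0.94 (0.82) and RBPMS at 0.94 (0.80). CPT1B was closest to BCKDHA, of branched-chain keto acid oxidation, at r = 0.97 (0.87), then ECH1 at 0.96 (0.77) and ACADL at 0.96 (0.78), both of fatty acid oxidation. ECI1 was closest to ACAA2, the thiolase that ends the beta oxidation cycle, at r = 0.98 (0.94), then NDUFS7 at 0.98 (0.90) and ASB11 at 0.98 (0.92). CPT2 was closest to TSNAXIP1 at r = 0.91 (0.80), then TRPV6 at 0.90 (0.65) and PHKA2 at 0.90 (0.69). Among the 5 enzymes themselves r ran from 0.42 (0.15) for LPL with CPT2 to 0.92 (0.72) for LPL with ACSL1. With group means removed the highest pair was CPT1B with CPT2, at 0.81, and LPL with CPT1B stood at 0.34, against 0.85 before.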

How the data were processed

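The log2 signals come from the authors' deposited table. RMA and MAS5 appear, per the submitters' processing notes, with neither version nor order. No header names the log base, and base 2 was inferred from the size of the values. Of 24123 probe sets, 124 control spots were left out and 23999 tested. The platform annotation gave 1 symbol to 10069 of them, several to 198 and none to 13732. A gene was represented by its brightest probe set over 20 arrays.

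Group means of all 20 arrays were fitted with limma 3.58.1 in R 4.3.3 (lmFit and eBayes, 16 residual degrees of freedom), with 6 two-sided differences and Benjamini-Hochberg adjustment over all tested probe sets within each. The p-values rest on the spread between pigs within groups, pooled over all 4 groups and moderated over all tested probe sets. Arrays of a group outside a comparison therefore also affect its p-values. The fit was tested on simulated data. Python 3.11.15 made the tables (pandas 2.3.3, numpy 2.4.6) and drew the figures (matplotlib 3.10.9).

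The enzymes and the pathway and marker lists were chosen with earlier results of these data known. Named pathway genes were, per role, up to 3 of smallest p that passed in RCS, 3 in RCO and 2 in SWOP. A pathway or marker gene counts as measured where a probe set carries its symbol alone. Signals below the 30th percentile (5.48) were called dim. Alternatives were quantile normalization, median centring, dim probe sets left out, array weights, a robust eBayes with an intensity trend, 2 groups fitted, a replicate block, the mean of a gene's probe sets, RCO replicates 2 and 3 left out and each array left out in turn. Centring on cardiomyocyte or mitochondrial markers was added after the data were seen.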

Additional observations from a re-analysis of the deposited data

Results flagged for a closer look

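In 5 of 128 groups of 5 arrays tested for the named genes, 1 array lay far from the other 4, and chance flags about 1 in 20 groups. CPT2 read 6.24 on RCS replicate 5 and 5.73 to 5.85 on the other RCS arrays. FABP5 read 12.07 on RCO replicate 1 and 12.23 to 12.27 on the others. SLC27A6 read 6.03 on RCS replicate 2 and 5.88 to 5.92 on the others. HADHB read 12.92 on SWOP replicate 1 and 13.27 to 13.31 on the others. UCP2 read 7.40 on RCO replicate 2 and 6.50 to 6.68 on the others.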

How the results depend on the processing

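The calls of LPL, ACSL1 and CPT1B against control in RCO and RCS, and of ECI1 in RCS, held under all 31 alternatives. Some differences turned sign, 3 of them called ones (CPT2 in RCS minus SWOP, and SLC27A6 and TMLHE in RCS minus control, each no longer passing). CPT2 in RCO minus control was 0.0428 with array weights, 0.0827 without RCO replicates 2 and 3, and 0.15 and 0.14 with cardiomyocyte and mitochondrial centring (−0.13 to 0.021 over single arrays left out). With those 2 centrings CPT2 in RCS minus SWOP was 0.0396 and 0.11, ACSL1 in RCS minus RCO was 0.20 and 0.21 (−0.14 to 0.12 over single arrays), LPL there was 0.11 and 0.12 (−0.24 to 0.0445), and in RCS minus control SLC27A6 was 0.14 and 0.14 and TMLHE 0.14 and 0.13. The centrings subtract lists that are lower in RCO and RCS, and other causes were not tested. CPT2 in RCO minus SWOP passed with them, at 0.42 and 0.48. With only 2 groups fitted, ECI1 in RCS minus RCO had an adjusted p of 0.0600 in limma.

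The count of enzymes called became 1 in RCS minus RCO with 2 groups fitted and 1 in SWOP minus control with array weights. Without single arrays it was 3 to 4 in RCO minus control, 2 to 3 in RCS minus RCO, 3 in RCO minus SWOP, 5 in RCS minus SWOP and in RCS minus control, and 0 in SWOP minus control. Pathway genes called in SWOP minus control numbered 1 with quantile normalization, 1 with median centring, 17 with array weights, 12 with 2 groups fitted, 8 with the mean of probe sets and 8 without RCO replicates 2 and 3. They numbered 5 with 2 groups fitted and 6 without RCO replicates 2 and 3 in RCO minus control, 3 without those arrays in RCO minus SWOP, and 29 with array weights, 4 with 2 groups fitted and 40 without RCO replicates 2 and 3 in RCS minus RCO. Without single arrays the ranges were 1 to 5 in SWOP minus control, 9 to 28 in RCO minus control, 48 to 52 in RCS minus control, 3 to 21 in RCO minus SWOP, 35 to 44 in RCS minus SWOP and 8 to 33 in RCS minus RCO.

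Over all probe sets the calls were 1716 in SWOP minus control (957 with quantile normalization, 5710 with array weights, 4091 with 2 groups fitted, 2748 without RCO replicates 2 and 3, 480 to 2428 over single arrays), 2571 in RCO minus control (564 with 2 groups, 1135 without RCO replicates 2 and 3, 1323 to 4251), 11404 in RCS minus control (9439 to 12080), 2414 in RCO minus SWOP (863 with 2 groups, 1006 to 2988), 6989 in RCS minus SWOP (5430 to 7762) and 4572 in RCS minus RCO (931 with 2 groups, 9052 without RCO replicates 2 and 3, 2053 to 7448). The cause of these shifts was not tested. Replicate numbers were checked for pairing by correlating deviations from group means. The r was −0.179 to 0.44 (median 0.073) over 30 same-numbered pairs of arrays. Over 120 other pairs it was −0.474 to 0.461 (median −0.004). Although same-numbered pairs were the minority, 11 of 20 arrays correlated best with their own number. Replicate 1 also had the highest mean signal of spiked-in control spots in every group, at 10.59 in SWOP, 10.76 in RCO, 10.12 in RCS and 10.33 in control. The labels state no pairing, and whether the numbers mark a shared batch was not tested. With the replicate number as a block, ECI1 in RCO minus control passed at −0.42 (limma adjusted p = 0.0278) and 4 pathway genes were called in SWOP minus control. The signal of dim probes limits what can be said of ACSL6 and ADIPOQ. CPT2, CPT1C and SLC27A6 had signals near the dim limit in some groups, and ACOT7 read below it on all control arrays. That limits what can be said of these genes too.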
